A study of Mus musculus with 10 samples.

Results

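Collagens are the main structural proteins of the gut wall. The genes examined here are the 44 whose symbols have the form of a collagen chain (Col, a type number, a, a chain number), out of 22180 genes tested on 10 arrays of mouse jejunum. By type they fall into 6 genes of types I, III and V (called fibrillar below), 6 genes of the basement membrane network (type IV) and 32 genes of other types. The other types include 5 minor fibrillar genes (types II, XI, XXIV and XXVII). All 44 were named by probe sets with 1 gene symbol, and all 44 matched a RefSeq gene of the same symbol by Entrez identifier.

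The study compared 5 arrays from mice of genotype Pcyt1aLoxP/LoxP;VilCreERT2 (knockout) with 5 arrays from Pcyt1aLoxP/LoxP mice (control). Both groups were females aged 10 to 12 weeks, both carried the floxed Pcyt1a alleles and both received tamoxifen during 5 days. All mice ate high-fat food for 3 days, went without food overnight and had 2 hours of the same food before 3 cm of jejunum was taken. Pcyt1a encodes the enzyme that sets the pace of phosphatidylcholine synthesis, and the villin promoter drives the inducible Cre in intestinal epithelium. Controls lack Cre, and what active Cre itself does cannot be told apart from the gene loss. Whether each array stands for a separate animal is not spelled out in the labels, so a p-value here covers the variation among these 10 arrays, some of which may be technical.

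Collagen chains wind into a triple helix inside the cell, are secreted, and assemble outside it. Types I and III form the thick fibrils of the submucosa and lamina propria, type V sits inside those fibrils and limits their width, and type IV builds the sheet under the epithelium and around vessels and muscle cells. Fibroblasts and smooth muscle cells, in which villin is not active, are the usual makers of the fibrillar types. The arrays hold RNA of the whole tissue piece, so fewer cells of a type and less RNA per cell cannot be told apart.

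As a check of the labels, Pcyt1a was lower in all 5 knockout arrays, with log2 intensities of 7.24 to 7.66 against 8.95 to 9.51 in control, a difference of -1.71 (SE 0.11, limma adjusted p = 6.51e-05). Where its probes lie relative to the deleted part is not given in the sources used here. Median intensity per array lay between 45.8 and 48.1, and correlations between arrays across genes were 0.972 to 0.993. Markers of the wall were measured in every array. Pdgfra, a fibroblast receptor, ran from 7.03 to 8.87 over the control arrays and from 7.62 to 8.72 over the knockout arrays, on the log2 scale. For Myh11, the smooth muscle myosin, the ranges were 6.94 to 9.14 and 7.01 to 7.56. The epithelial genes Vil1 and Epcam stayed between 11.67 and 12.53 in all arrays, while Krt19 ranged from 9.27 to 10.57. Of 12 epithelial markers, 6 were higher and 6 lower in knockout, and limma called 0 (over all genes 0.343%). At an unadjusted limma p under 0.05 there was 1, Krt19 with a difference of 0.42, where the share over all genes was 12.1%. Control 4 had the highest smooth muscle markers, and control 5 the lowest fibroblast and macrophage markers.

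No collagen gene passed the test between knockout and control. Limma called 0 of 44 at an adjusted p under 0.05, where 76 of all 22180 genes (0.343%) were called. At an unadjusted p under 0.05 there were 5 collagen genes, or 11.4% of the 44, and over all genes that share was 12.1%. These 5 were Col1a1, Col1a2, Col3a1, Col17a1 and Col18a1, and all 5 stood higher in knockout. Over all genes, 5.82% were higher in knockout at that unadjusted p. The median difference, knockout minus control, was -0.01 on the log2 scale over the 44, with 21 higher and 23 lower values, and -3.54e-04 over all genes. By type, the median was 0.30 for the 6 fibrillar genes, -0.02 for the 6 type IV genes and -0.02 for the other 32. All 6 values of types I, III and V were above 0, against 3 of 6 for type IV and 12 of 32 for the rest. Of the 5 minor fibrillar genes among the rest, 1 was higher and 4 lower in knockout, with a median of -0.02. These medians describe the lists and were not tested.

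**Figure D1:**
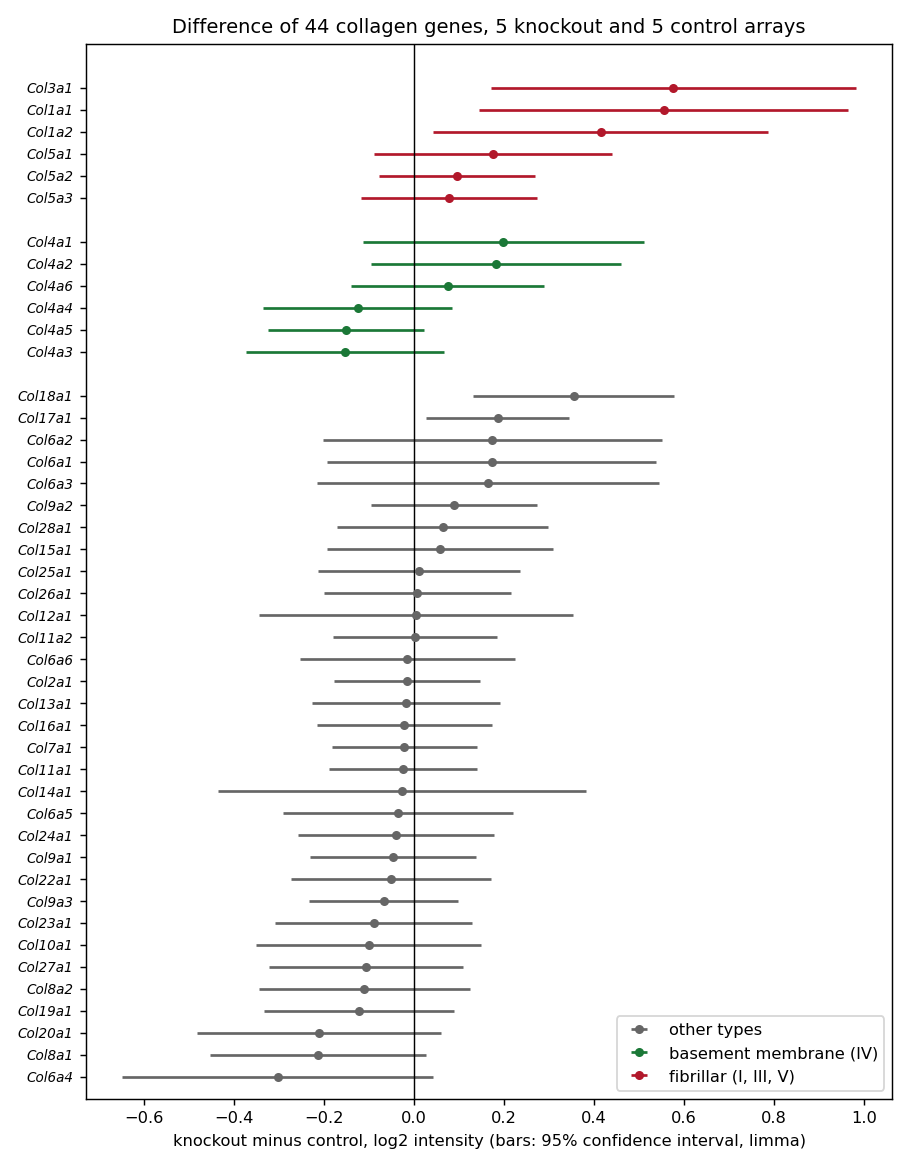
Difference in log2 intensity, knockout minus control, of the 44 collagen genes (points) with limma's 95% confidence interval (bars), by type. The intervals of Col3a1, Col1a1, Col1a2, Col18a1 and Col17a1 lie above 0, all others include it, and 0 of 44 genes passed after adjustment.

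The genes of types I and III had the 3 highest differences of the 44. Col3a1, the single chain of type III collagen, read 7.99, 7.94, 8.18, 7.55 and 8.35 in knockouts 1 to 5 and 7.72, 7.63, 7.43, 7.57 and 6.77 in controls 1 to 5, as log2 intensity. Knockout 5 was the highest and control 5 the lowest array, and knockout 4 lay among the controls, so the groups overlapped. Knockout averaged 8.003 ± 0.30 (SD, n = 5), control 7.43 ± 0.38 (SD, n = 5). The difference was 0.58 (SE 0.19, 95% confidence interval 0.17 to 0.98), or 1.49-fold (1.13 to 1.97), with a limma adjusted p of 0.240 and a two-sided exact permutation p of 0.0317. Unlike the limma adjusted p, exact permutation p-values here and below are not adjusted for the number of genes.

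Col1a1, which supplies most chains of type I collagen, gave 7.62, 7.39, 7.505, 6.99 and 8.21 in knockout and 7.28, 7.06, 6.98, 6.96 and 6.67 in control. Again 4 of 5 knockout arrays stood above every control and knockout 4 fell within the control range. Its means were 7.54 ± 0.44 (SD, n = 5) and 6.99 ± 0.22 (SD, n = 5), a difference of 0.55 (SE 0.19), or 1.47-fold (1.11 to 1.95), with a limma adjusted p of 0.264 and an exact permutation p of 0.0238. Col1a2, the partner chain of type I, read 7.45, 7.28, 7.43, 6.999 and 8.03 in knockout and 7.20, 7.17, 6.86, 7.17 and 6.71 in control. Here too knockout 4 was the only knockout array inside the control range. The difference was 0.42 (SE 0.17), or 1.33-fold (1.03 to 1.73), with a limma adjusted p of 0.356 and an exact permutation p of 0.0556.

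**Figure D2:**
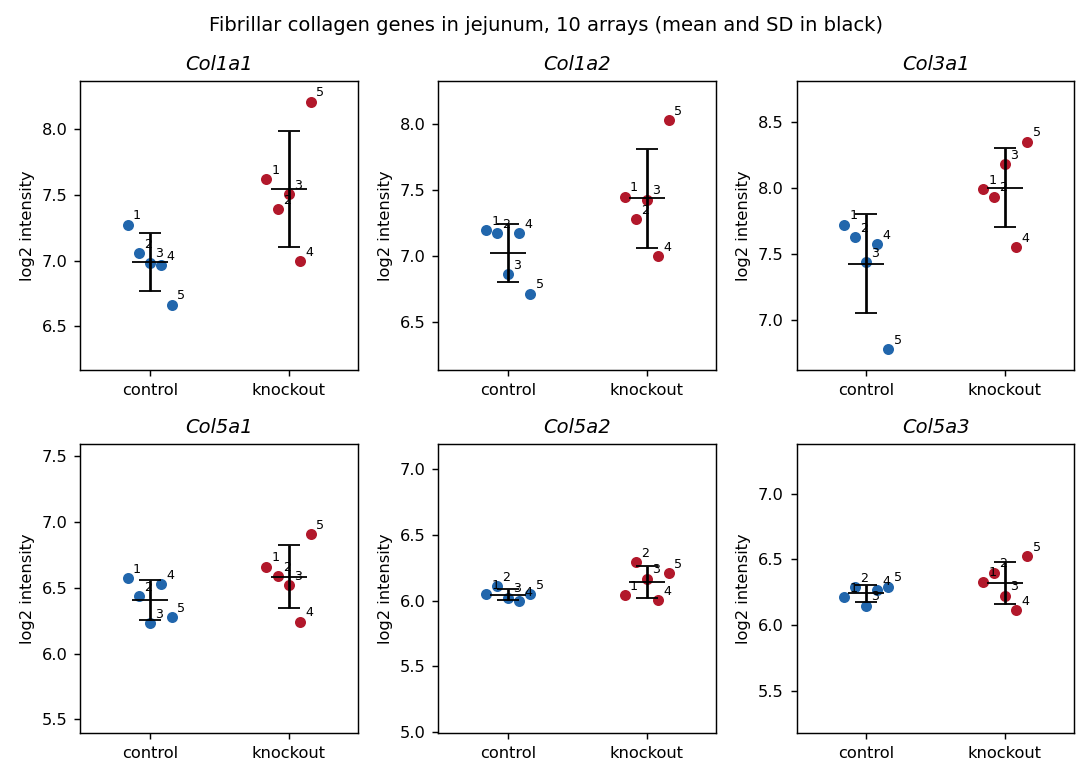
Log2 intensity of the 6 fibrillar collagen genes in each array, control in blue and knockout in red, with replicate numbers and, in black, the mean and SD of 5 arrays; every panel spans the same range of log2 units. In Col1a1, Col1a2 and Col3a1, 4 of 5 knockout arrays lie above all controls and knockout 4 does not; the type V genes differ less.

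The type V genes, whose chains co-assemble with type I, showed smaller differences. Col5a1 lay at 6.24 to 6.91 in knockout arrays and 6.23 to 6.57 in control arrays, a difference of 0.18 (95% confidence interval -0.09 to 0.44). Col5a2 ranged from 6.0045 to 6.29 and from 5.9955 to 6.11, a difference of 0.10 (-0.08 to 0.27), and Col5a3 from 6.11 to 6.53 and from 6.15 to 6.29, a difference of 0.08 (-0.12 to 0.27). Their limma adjusted p ran from 0.618 for Col5a1 to 0.794 for Col5a3. The groups overlapped in all 3, with 3 of 5 knockout arrays above every control in each.

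The size of the type I and III differences moved with single arrays and did not reach the threshold under any of 22 alternative settings. Over these settings Col1a1 ran from 0.39 to 0.69, Col1a2 from 0.27 to 0.53 and Col3a1 from 0.41 to 0.69. When the mean of the smooth muscle list entered the fit as a covariate, Col1a1 stood at 0.60 (limma adjusted p = 0.230) and Col3a1 at 0.63 (adjusted p = 0.186). With the fibroblast list mean, a covariate added after the data were seen, they stood at 0.51 (limma adjusted p = 0.258) and 0.52 (adjusted p = 0.140). With the ileum list mean they stood at 0.49 (limma adjusted p = 0.587) and 0.46 (adjusted p = 0.596). Without knockout 1 and control 5, the arrays with the lowest ileum means, the values were 0.45 (limma adjusted p = 0.433) and 0.42 (adjusted p = 0.318).

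Across arrays the mean of Col1a1, Col1a2 and Col3a1, each gene first centred on its mean over the 10 arrays, was 0.28, 0.13, 0.30, -0.22 and 0.80 in knockouts 1 to 5. In controls 1 to 5 it was -0.0062, -0.12, -0.31, -0.17 and -0.69. All controls lay below 0 and 4 of 5 knockouts above it. The 15 fibroblast markers, centred in the same way, (of which Dcn, Lum and Fbln1 are also fibril partners below) averaged 0.04, -0.07, 0.02, -0.05 and 0.15 in knockout and 0.02, 0.09, -0.11, 0.26 and -0.36 in control, with 11 of 15 higher in knockout, a median difference of 0.02 and 0 called. Control 5 was the lowest array in both, whereas control 4, the highest in fibroblast markers, was below 0 for types I and III. The 15 smooth muscle markers averaged from -0.31 in knockout 4 to 0.17 in knockout 5, and from -0.25 in control 5 to 0.84 in control 4. Of these, 5 were higher and 10 lower in knockout, with a median difference of -0.13 and 0 called. The 8 ileum genes averaged -1.31 in knockout 1 and 0.60 to 1.13 in the other knockouts, against -0.99 to 0.18 in controls, with 6 higher, 2 lower, a median difference of 0.43 and 0 called. At an unadjusted p under 0.05 there were 5 of these 8, against 12.1% over all genes, including the bile acid carrier Fabp6 at 3.89 (SE 0.97), Fgf15 at 1.16 and, without overlap, Cubn at -0.84. Of 10 genes of the proximal intestine, 3 were higher and 7 lower in knockout, with a median difference of -0.16 and 0 called. At an unadjusted p under 0.05 there were 3, among them lactase (Lct) at -0.72 without overlap. Their centred mean was 0.35 in knockout 1 and -0.35 to -0.16 in the other knockouts, against -0.02 to 0.32 in controls. Groups did not overlap in 1 of the 8 ileum genes and 1 of the 10 proximal genes, against 2.77% over all genes (1.56% with knockout lower). Beside the counts of 0 called in these lists, the share called over all genes was 0.343%. Beyond the covariate values above, the part of these lists in the collagen differences was not tested.

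**Figure D3:**
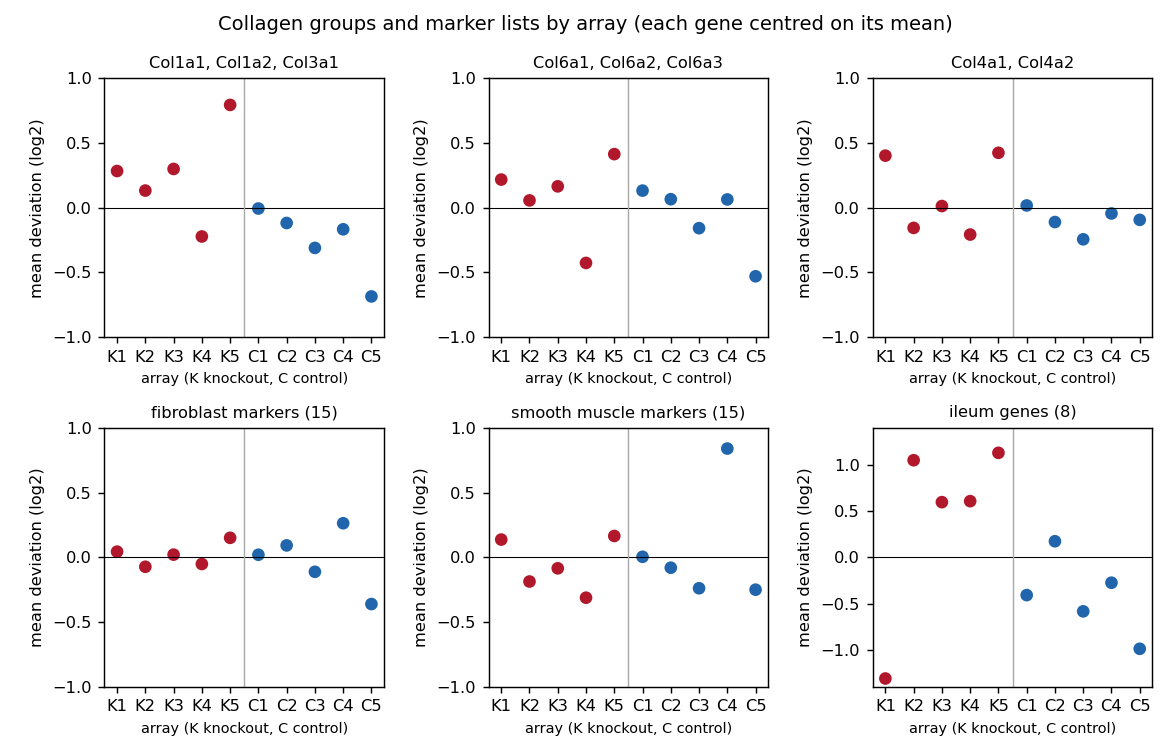
Mean deviation in log2 intensity per array for 3 sets of collagen genes (top) and 3 marker lists (bottom), each gene centred on its mean over the 10 arrays; K is knockout (red) and C control (blue). Types I and III are highest in knockout 5 and lowest in control 5, smooth muscle markers stand highest in control 4, and the ileum list is lowest in knockout 1.

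Genes whose chains share a protein or a fibril were compared over the 10 arrays in 12 pairs, chosen with earlier results of these data known. Of these pairs, 5 had an adjusted permutation p under 0.05 for Pearson's r. Col1a1 and Col1a2 had r = 0.97 (permutation p = 2.00e-05, adjusted 2.40e-04; Spearman's rho 0.96, permutation p = 6.00e-05). Col1a1 and Col3a1 had r = 0.91 (permutation p = 5.90e-04, adjusted p = 0.00354) and rho = 0.95 (permutation p = 1.70e-04). Without knockout 5 and control 5, the arrays farthest from the median of Col1a1, r was 0.87 and 0.93 over 8 arrays. With the group means removed it was 0.95 and 0.83. Col6a1 and Col6a3 had r = 0.83 (permutation p = 0.00331, adjusted p = 0.00871) and rho = 0.88 (permutation p = 0.00163), and r was 0.90 without knockout 4 and control 5.

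Both remaining pairs past the threshold rested on a few arrays. For Col4a1 and Col4a2 r was 0.88 (permutation p = 0.00363, adjusted p = 0.00871) and rho 0.67 (permutation p = 0.0393, adjusted p = 0.0944), but r was 0.42 without knockouts 1 and 5. For Col6a1 and Col6a2 r was 0.88 (permutation p = 0.00115, adjusted p = 0.00460) and rho 0.72 (permutation p = 0.0230, adjusted p = 0.0691), but r was 0.51 without knockout 4 and control 5. By rank correlation both missed the threshold after adjustment. With the group means removed, r over all 10 arrays was 0.86 for Col4a1 and Col4a2 and 0.87 for Col6a1 and Col6a2. The other 7 pairs had adjusted permutation p of 0.172 or more. Among them, Col5a1 and Col5a2 had r = 0.55 (permutation p = 0.10) with rho = 0.48 (permutation p = 0.162), and Col11a1 and Col11a2 r = -0.36 (permutation p = 0.304) with rho = -0.38 (permutation p = 0.278). Pairs that share a gene are not independent of each other, and all values come from the same arrays.

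**Figure D4:**
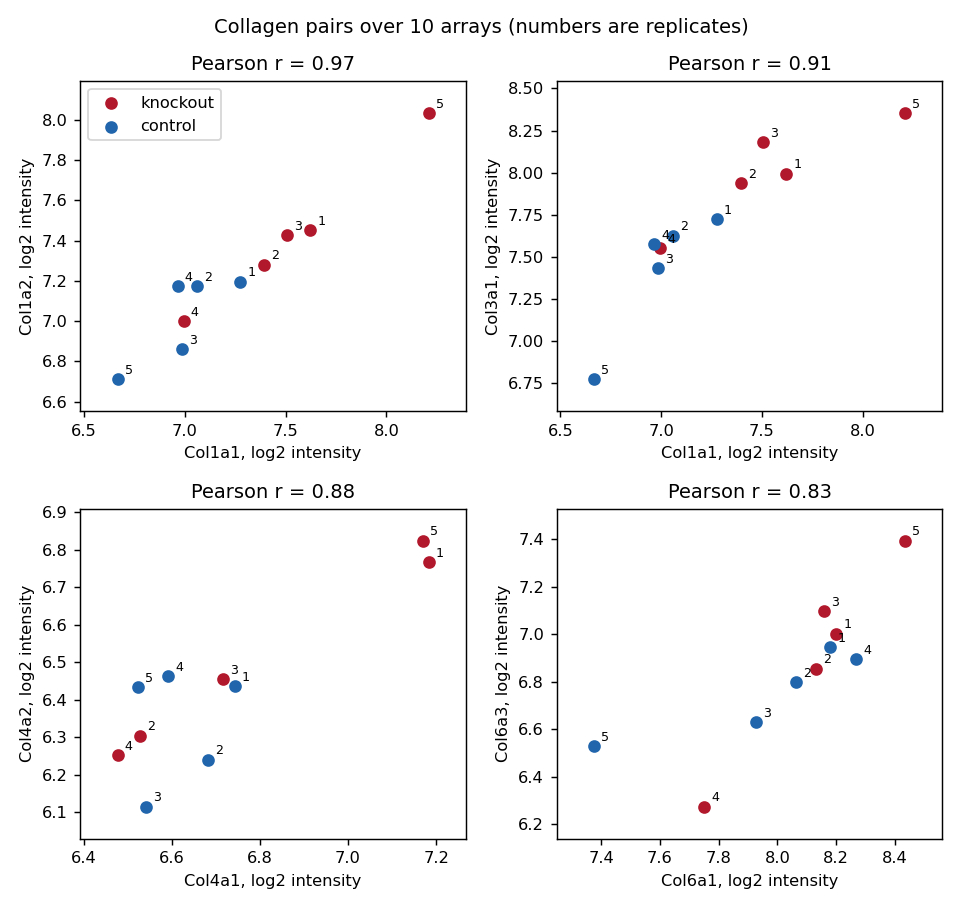
Log2 intensity of 4 pairs of collagen genes over 10 arrays, knockout in red and control in blue, with replicate numbers and Pearson's r. Col1a1 varies with Col1a2 and Col3a1 across both groups, while the relation of Col4a1 and Col4a2 rests on knockouts 1 and 5.

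For Col1a2, Col3a1 and Col6a1, members of the pairs above, the 250 bases before their annotated starts are shown (RefSeq, GRCm38.p6, 5′ to 3′ on the gene's strand). Whether these stretches have a part in the co-variation was not tested. A start window was at hand for 35 of the 44 genes, and Col1a1 was not among them. Capitals mark matches to the letters of 4 motifs, searched on both strands and at any distance from the start. The letters are those of the TATA box (TATAAA), the CCAAT box (CCAAT), the GC box (GGGCGG) and the Smad box (CAGACA). No marked matches overlap.
Col1a2: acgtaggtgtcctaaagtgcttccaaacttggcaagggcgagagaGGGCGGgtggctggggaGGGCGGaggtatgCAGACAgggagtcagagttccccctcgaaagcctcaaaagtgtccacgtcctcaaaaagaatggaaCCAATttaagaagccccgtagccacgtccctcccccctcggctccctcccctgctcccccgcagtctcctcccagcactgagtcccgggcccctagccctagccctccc
Col3a1: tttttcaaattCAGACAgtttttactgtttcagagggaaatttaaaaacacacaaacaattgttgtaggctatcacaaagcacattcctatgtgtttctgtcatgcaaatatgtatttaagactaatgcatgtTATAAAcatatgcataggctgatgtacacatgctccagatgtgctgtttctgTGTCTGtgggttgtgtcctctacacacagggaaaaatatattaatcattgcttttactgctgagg
Col6a1: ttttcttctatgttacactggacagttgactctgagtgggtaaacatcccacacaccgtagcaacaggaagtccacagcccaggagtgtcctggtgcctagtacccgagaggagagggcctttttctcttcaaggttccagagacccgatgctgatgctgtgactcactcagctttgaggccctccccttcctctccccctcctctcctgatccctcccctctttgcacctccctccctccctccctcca
The stretch before Col1a2 (chr6:4505368-4505617, plus strand) holds 2 copies of GGGCGG, 1 CCAAT and 1 CAGACA, and that before Col3a1 (chr1:45311288-45311537, plus strand) 1 TATAAA and 2 CAGACA, of which 1 is on the other strand. The TATAAA before Col3a1 begins 117 bases ahead of the annotated start, and whether it acts as a TATA box was not tested. The stretch before Col6a1 (chr10:76726045-76726294, minus strand) holds none of the 4 motifs. Their shares of G and C bases were 62.0%, 35.2% and 56.0%. Among 38 such windows of collagen genes, 57.9% held GGGCGG, 34.2% CCAAT, 23.7% CAGACA and 13.2% TATAAA, and among all 32851 windows of the table the shares were 32.7%, 33.85%, 17.1% and 12.4%. These matches of letters are a description and show no binding.

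Among the basement membrane genes, Col4a1 and Col4a2 encode the chains of the type IV network found in most tissues, and their genes lie head to head. In the RefSeq windows compared, their starts are 21 bases apart on mouse chromosome 8. The annotated genes overlap there, as Col4a1 reaches to base 11312889 and Col4a2 begins at base 11312805. Col4a1 read 7.18, 6.53, 6.72, 6.48 and 7.17 in knockouts 1 to 5 and 6.74, 6.68, 6.54, 6.59 and 6.52 in controls 1 to 5. Col4a2 read 6.77, 6.30, 6.45, 6.25 and 6.82 in knockout and 6.44, 6.24, 6.11, 6.46 and 6.43 in control. In both, knockouts 1 and 5 stood above every control and the other 3 knockouts at or near the control range. The differences were 0.20 (95% confidence interval -0.11 to 0.51) and 0.18 (-0.09 to 0.46), with limma adjusted p of 0.638 and 0.621. Col4a1 stood at 0.11 without knockout 1 and also without knockout 5, and Col4a2 at 0.12 and 0.11.

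Col4a3, Col4a4 and Col4a5 encode chains of the network best known from the kidney filter, and their values were lower in knockout. Col4a5 lay at 5.24 to 5.42 in knockout arrays and 5.40 to 5.61 in control arrays, a difference of -0.15 (95% confidence interval -0.32 to 0.02, limma adjusted p = 0.490, exact permutation p = 0.0476). Col4a3 ranged from 5.48 to 5.97 and from 5.78 to 6.07, a difference of -0.15 (-0.37 to 0.07), and Col4a4 from 4.81 to 5.04 and from 4.93 to 5.34, a difference of -0.12 (-0.33 to 0.085). Col4a6, which shares a head-to-head arrangement with Col4a5, stood at 0.07 (-0.14 to 0.29) with knockout arrays within the control range. Its direction turned without control 5 (-0.0039) and without knockout 1 and control 5 together (-0.02). The groups overlapped in all 6 type IV genes.

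Among the other 32 genes, Col18a1 had the smallest p of all 44. It encodes a basement membrane collagen whose end fragment is endostatin. Col18a1 read 6.38, 6.24, 6.42, 6.08 and 6.49 in knockouts 1 to 5 and 6.12, 5.98, 5.90, 6.10 and 5.75 in controls 1 to 5, with knockout 4 alone inside the control range. Its means were 6.32 ± 0.16 (SD, n = 5) and 5.97 ± 0.15 (SD, n = 5), a difference of 0.35 (SE 0.10), or 1.28-fold (1.095 to 1.49), with a limma adjusted p of 0.178 and an exact permutation p of 0.0238. Over the 22 alternatives it ran from 0.29 to 0.42, with limma adjusted p from 0.125 to 0.464.

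In Col17a1, the transmembrane collagen of hemidesmosomes that anchors epithelial cells, knockout arrays read 5.70, 5.66, 5.68, 5.56 and 5.62 and controls 5.39, 5.49, 5.38, 5.49 and 5.54. It was the only one of the 44 in which the groups did not overlap, or 2.27% of them, and over all genes this held for 2.77% (1.2% with knockout higher). The gap between the lowest knockout and the highest control was small, and the difference was 0.19 (SE 0.07), or 1.14-fold (1.02 to 1.27), with a limma adjusted p of 0.331 and an exact permutation p of 0.00794, the smallest that 252 assignments can give.

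The beaded filament collagen VI varied with the arrays more than with the groups. Col6a1, Col6a2 and Col6a3, its main chains, stood at 0.17, 0.17 and 0.165 (SE 0.17, 0.17 and 0.18), with means of 8.14 ± 0.25, 7.46 ± 0.30 and 6.92 ± 0.41 in knockout and 7.96 ± 0.35, 7.29 ± 0.33 and 6.76 ± 0.18 in control (each SD, n = 5). Their joint centred mean was 0.22, 0.06, 0.17, -0.43 and 0.41 in knockouts 1 to 5 and 0.13, 0.07, -0.16, 0.06 and -0.53 in controls 1 to 5. Knockout 4 and control 5, the lowest arrays, came from different groups. Without control 5 the differences of Col6a1, Col6a2 and Col6a3 were 0.03, 0.05 and 0.11, and without knockout 4 they were 0.27, 0.30 and 0.33. Without knockout 5 Col6a1 stood at 0.10 and Col6a3 at 0.05, and without knockout 1 Col6a2 stood at 0.11. Without knockout 1 and control 5 together Col6a2 turned to -0.02. Col6a4, a further chain of the family, had the lowest difference of the 44, -0.30 (95% confidence interval -0.65 to 0.04, limma adjusted p = 0.487), with 6.12 to 7.04 in knockout and 6.74 to 7.22 in control.

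Smaller p-values than in the remaining genes were also found in Col8a1, a network collagen of vessel walls (-0.21, 95% confidence interval -0.45 to 0.03), Col20a1 (-0.21, -0.48 to 0.06), Col19a1 (-0.12, -0.33 to 0.09), Col27a1 (-0.11, -0.32 to 0.11) and Col9a2 (0.09, -0.10 to 0.27), with limma adjusted p of 0.481, 0.546, 0.682, 0.734 and 0.744. Col14a1 and Col12a1, which decorate the surface of type I fibrils, stood at -0.03 (-0.43 to 0.38) and 0.0048 (-0.34 to 0.35), with overlapping groups in both. Over the 39 genes with an unadjusted p of 0.05 or more, differences ran from -0.30 to 0.20, and their 95% confidence intervals reached from -0.65 to 0.55. A p that misses the threshold does not show that these genes were alike in both groups.

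**Figure D5:**
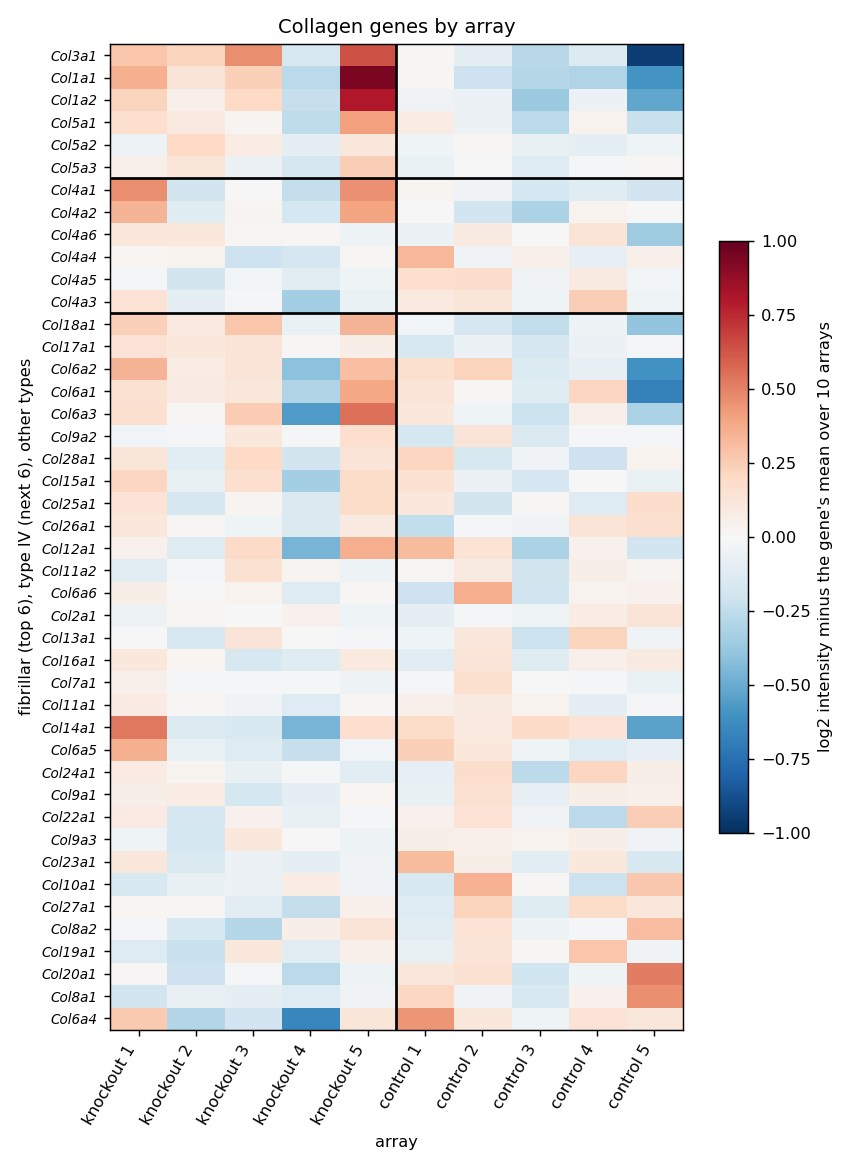
Deviation of log2 intensity from each gene's mean over 10 arrays for the 44 collagen genes (rows) in the 5 knockout and 5 control arrays (columns), red above and blue below the mean. Knockout 5 has the highest value for 12 genes, knockout 4 the lowest for 11 and control 5 the lowest for 10, so single arrays stand out within both groups.

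The SD over the 10 arrays ran from 0.07 for Col7a1 to 0.44 for Col3a1, and classes overlapped in it: from 0.098 to 0.44 among the fibrillar genes, from 0.16 to 0.31 in type VI, and from 0.080 to 0.33 among the fibril-associated collagens that include Col12a1 and Col14a1. The median SD was 0.16 for the 44 and 0.19 for all genes. Detection calls were not used here, and 5 of the 44 were among the dimmest 30% of genes, where a difference is hard to see. Whether the others stood above background was not tested. Low readings among them include Col4a4 (4.81 to 5.34 over all arrays) and Col17a1 (5.38 to 5.70). Knockout 5 gave the highest value in 12 of the 44 genes, knockout 4 the lowest in 11 and control 5 the lowest in 10.

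Genes that act with collagens were followed in 7 lists holding 117 measured genes. Limma called 0 of them, where the share over all genes was 0.343%. At an unadjusted p under 0.05 there were 14 of them (12.0%, against 12.1% over all genes), 3 higher and 11 lower in knockout. Among all 22180 genes, 1291 were higher and 1387 lower at that p. Groups did not overlap in 5 of 117 (4.27%, against 2.77% over all genes), all 5 lower in knockout: Bmp1, Ogn, Lama3, Mia3 and Lamb2. Over all genes, 1.56% were separated in that direction. The median difference over the 117 was 0.02.

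For folding and export of collagen chains, 10 of 20 genes stood higher and 10 lower (median 0.01). Mia3 (TANGO1), which loads procollagen into carriers leaving the endoplasmic reticulum, was at -0.30 (SE 0.08, limma adjusted p = 0.147), and its relative Ctage5 at -0.45 (SE 0.14, limma adjusted p = 0.199). Ctage5 was called under 2 of 22 alternatives, with limma adjusted p from 0.0271 to 0.586. Crtap, part of the proline 3-hydroxylation complex, was at 0.57 (SE 0.18) and the lysyl hydroxylase Plod1 at -0.29 (SE 0.14). In processing and crosslinking, 7 of 13 stood higher and 6 lower (median 0.01). Bmp1, the protease that cuts the end propeptide off procollagens, read 7.80, 6.83, 7.13, 6.12 and 6.68 in knockout and 8.12, 8.23, 7.93, 8.29 and 8.95 in control. All knockout arrays lay below all controls, at 6.91 ± 0.62 against 8.30 ± 0.38 (SD, n = 5). Its difference of -1.39 (SE 0.27, limma adjusted p = 0.0557) missed the threshold, and it was called under 5 of 22 alternatives (1 of them the threshold of 0.1), with adjusted p from 0.00778 to 0.195. The others named by p were Tgm2 (-0.24), Tll2 (0.19) and Loxl3 (-0.17).

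Among partners on the fibril, 9 of 19 stood higher and 10 lower (median -0.02). Ogn, the small proteoglycan osteoglycin, read 5.53, 5.12, 5.82, 5.40 and 5.68 in knockout and 7.13, 6.64, 6.52, 7.63 and 6.05 in control, so every knockout array was below every control. Its difference was -1.28 (SE 0.25, limma adjusted p = 0.0545), and it was called under 9 of 22 alternatives (1 of them the threshold of 0.1), with adjusted p from 0.00554 to 0.158. Fbln1 was at -0.45 (SE 0.14), Vcan at 0.31 (SE 0.15) and Mfap5 at -0.20 (SE 0.13). Among partners in the basement membrane, 12 of 18 stood higher and 6 lower (median 0.07). Lama3, the laminin chain of hemidesmosomes, read 7.12, 7.997, 7.89, 6.65 and 7.86 in knockout and 8.78, 9.35, 8.23, 9.20 and 8.36 in control. That is a difference of -1.28 (SE 0.28, limma adjusted p = 0.0861) without overlap, past the threshold only where this was set to 0.1. Lamb2 was at -0.22 (SE 0.08), Agrn at 0.37 (SE 0.18) and Lama1 at 0.19 (SE 0.10).

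Collagen receptors gave 7 higher and 4 lower of 11 (median 0.05), with the integrin chains Itga2 at 0.65 (SE 0.24) and Itga1 at -0.38 (SE 0.15), the receptor kinase Ddr1 at 0.27 (SE 0.14) and Cd44 at 0.42 (SE 0.22). Genes of turnover gave 11 higher and 8 lower of 19 (median 0.02), led by the cathepsins Ctsl at -0.77 (SE 0.32) and Ctsk at -0.20 (SE 0.12), then Fap at 0.41 (SE 0.26) and the inhibitor Timp3 at -0.30 (SE 0.19). In the TGF-beta pathway, known as an inducer of type I collagen, 7 of 17 stood higher and 10 lower (median -0.04). Its inhibitor Smad7 was at -0.53 (SE 0.16, limma adjusted p = 0.188), the receptors Tgfbr2 and Tgfbr1 at 0.26 (SE 0.11) and -0.22 (SE 0.10), and Ltbp3 at 0.14 (SE 0.10). None of these 12 genes passed the test.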

How the data were processed

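RNA from 10 jejunum samples, 5 knockout and 5 control by their titles, was measured on Affymetrix arrays. Per the submitters' processing notes, the authors used Affymetrix Expression Console 1.4.1.46 and RMA, and the values deposited are linear intensities. Log2 was taken here. Of 41345 probe sets, 23521 had 1 gene symbol in the platform annotation, 1814 had several and 16010 were unnamed. Only those with 1 symbol were used, with the probe set of highest mean per gene, which gave 22180 genes. RMA makes arrays alike in distribution, so a shift shared by most genes would not be seen, and precision is limited by having 10 arrays.

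Knockout was tested against control in limma 3.58.1 (R 4.3.3, lmFit and eBayes), with Benjamini-Hochberg adjustment over all 22180 genes and a threshold of 0.05. The code was tested on simulated data. Exact permutation tests used all 252 assignments, gene by gene and without adjustment. Correlations used 100000 permutations over 10 arrays, adjusted over 12 pairs. The collagen genes, lists and pairs were chosen with earlier results of these data known. Named were Pcyt1a, all collagens of types I, III, IV and V, the 8 other collagens with the smallest p, any collagen called or without overlap, and 4 genes per pathway list by p. Other collagens are named as members. Alternatives were a shared median, quantile normalization, a filter on the dimmest 30% of genes, the mean of probe sets, trend and robust fitting, array weights, a replicate block, each array left out, 2 arrays left out together, 3 list means as covariates and a threshold of 0.1.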

Additional observations from a re-analysis of the deposited data

Results flagged for a closer look

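In each group of 5 arrays, an array was singled out where its gap to the nearest other array exceeded 0.71 of the group's range, which chance gives in about 1 of 20 groups. Of 146 groups examined, 9 had such an array. Among collagens this was Col14a1 in control 5 (5.52, others 6.16 to 6.25). Control 5 was also singled out for Ctage5 (11.25, others 10.85 to 10.91) and Ctsl (9.72, others 8.41 to 8.71), and control 4 for Lamb2 (6.19, others 6.02 to 6.07). Knockout 5 stood apart for Cd44 (6.53, others 6.998 to 7.18), Agrn (9.50, others 8.55 to 8.73) and Tgfbr2 (7.58, others 7.25 to 7.34), knockout 1 for Ctage5 (11.01, others 10.27 to 10.48) and knockout 2 for Tgfbr1 (6.44, others 6.74 to 6.85). All values are log2 intensities.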

How the results depend on the processing

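The count of 0 called collagen genes held under all 22 alternatives, and the lowest limma adjusted p of any collagen gene over them was 0.125. Of the 44 genes, 28 kept the sign of their difference throughout and 16 did not. Pcyt1a was called under all 22. The count of genes called among all genes, 76, was 142 with array weights, 27 with the replicate block, 20 with the ileum covariate, 186 without knockout 1 and control 5 together and 261 at a threshold of 0.1. With 1 array left out it ran from 11 (without knockout 2) to 268 (without knockout 1). It moved by over 1.5 times also without knockout 3 (29), knockout 4 (12), and controls 1 (18), 2 (16), 3 (50), 4 (15) and 5 (36). The cause was not tested. Deviations of same-numbered arrays correlated at -0.135 to 0.125 and none matched its own number best, so the numbers were not taken to pair the samples. With the replicate block Col1a1 stood at 0.55 (limma adjusted p = 0.302). Correlations were recomputed under 14 of the 22 alternatives, and the 5 pairs of genes past the threshold by r stayed past it in each. None of the 14 left out knockouts 1 and 5 together, where r of Col4a1 and Col4a2 was 0.42. Nor did any leave out knockout 4 and control 5 together, where r of Col6a1 and Col6a2 was 0.51.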

Other observations

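Of the 44 collagen genes, 3 had a further probe set. For Col1a2 it gave a difference of 0.53, knockout minus control on the log2 scale, beside 0.42 for the probe set used. For Col6a1 it gave 0.20 beside 0.17, and for Col5a1 0.01 beside 0.18.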
